A study of Mus musculus with 24 samples.

Results

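The mitochondrial ribosomal proteins were taken as every transcript whose gene symbol began with Mrpl or Mrps followed by a number. The rule found 78 genes, 49 named for the large subunit (Mrpl) and 29 for the small subunit (Mrps), among 12759 transcripts listed in at least 1 of the 8 tables of RNA-seq and ribo-seq counts. All 78 were listed in all 8 tables and all passed the filter on low counts in every comparison, so none was lost. The cells were Neuro-2a (N2a), a mouse neuroblastoma line. KO cells had received a plasmid for Cas9 with guide RNAs against Eif4e3, which encodes a member of the cap-binding eIF4E family, and were a pool that survived puromycin rather than a clone, so some cells of the pool may have kept the gene. The paper reports that their eIF4E3 protein fell below detection on a Western blot. Ctrl cells, labelled WT, had received the empty Cas9 vector. Each line was treated for 2 h with 250 nM Torin1, an inhibitor of the active site of mTOR, or with the DMSO vehicle. Each of the 4 conditions had 3 replicates, each from another passage of the cells, and was measured by RNA-seq of mRNA and by ribo-seq, in which fragments protected by ribosomes (footprints) are sequenced.

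The mitochondrial ribosome makes the few proteins that mitochondrial DNA encodes, all of them subunits of the respiratory chain and ATP synthase. Its RNAs come from the mitochondrial genome, but all of its proteins are encoded in the nucleus, made on cytosolic ribosomes and imported, so their synthesis passes through the cap-dependent machinery that mTOR controls. mTORC1 acts on that machinery by phosphorylating the 4E-BPs, which otherwise sequester eIF4E, and the mRNAs known to depend most on it start with a cytidine and a run of pyrimidines, the 5′ terminal oligopyrimidine (TOP) motif of cytosolic ribosomal protein mRNAs. Translational efficiency (TE) is used below for the ratio of footprints to mRNA of the same coding sequence.

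The RNA-seq libraries held 17047795 to 28910907 counts and the 11 ribo-seq libraries 669010 to 5284909, of which the 78 genes took 0.572% to 0.765% and 0.491% to 0.670%. For ctrl DMSO only ribo-seq replicates 1 and 3 were analysed here, and replicate 3 was the shallowest, with a median of 44 footprints and a lowest count of 10 over the 78 genes. Mean Eif4e3 mRNA was 16.1 CPM (counts relative to a library total scaled to 1e6) in ctrl DMSO, 14.6 in ctrl Torin1, 3.85 in KO DMSO and 4.74 in KO Torin1, so the labels of the lines held. Of 17 markers of neuroblastoma and sympathoadrenal cells 14 were listed throughout, with a summed mRNA level of 3671 to 4175 CPM per condition, against at most 2.55 CPM for fibroblast, 3.18 CPM for immune and 1.48 CPM for Schwann and glial markers, whose defining genes were mostly not listed. Here and below, a level is in CPM after TMM scaling, a test is edgeR's quasi-likelihood test on the counts with Benjamini-Hochberg adjustment over all transcripts, and a gene rose or fell if its adjusted p was below 0.05.

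The transcription starts of the genes on which the results turn are shown first, because a TOP motif would lie there. Each line gives 10 bases before and 20 bases from the RefSeq start (GRCm38.p6), 5′ to 3′ on the strand of the gene, with the first 5 bases from that start in capitals. The first set holds the 6 mitoribosomal genes with the most negative TE change under Torin1 in KO cells.
Mrpl30 (chr1:37890467-37890496, + strand): aaagaaccgtACGGTctgtgacggcaacgg
Mrpl32 (chr13:14613018-14613047, - strand): cccgcgtcccGCTCTgtcttgagaagatca
Mrpl52 (chr14:54426899-54426928, + strand): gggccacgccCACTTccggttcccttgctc
Mrpl14 (chr17:45686339-45686368, + strand): ggagaaccccTGGCGcgcaggcgcagcgtg
Mrps24 (chr11:5707682-5707711, - strand): gccttcctgcGGCTGcgcactgacgcgtcc
Mrpl58 (chr11:115403742-115403771, + strand): agtgagcaccGGAAGcggtcctgggaggtg
The next set holds the 3 with the most positive TE change among members with a RefSeq start, none of which passed the test.
Mrpl41 (chr2:24975079-24975108, - strand): ttgggcgcccTGGTGaccagtcggcgaggc
Mrpl36 (chr13:73330999-73331028, + strand): tggcgtcccaCTCCActgcgcagacgcgga
Mrpl51 (chr6:125192190-125192219, + strand): gactccctaaGCTACctgggtaaggcccaa
The last set holds, for comparison, the 3 cytosolic ribosomal protein genes with the most negative TE change among those that start with a TOP motif.
Rps18 (chr17:33955646-33955675, - strand): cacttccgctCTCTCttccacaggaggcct
Rps21 (chr2:180257369-180257398, + strand): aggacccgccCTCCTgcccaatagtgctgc
Rplp2 (chr7:141447641-141447670, + strand): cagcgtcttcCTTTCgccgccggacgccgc
None of the 9 mitoribosomal starts shown began with C and 4 further pyrimidines, whereas the 3 cytosolic ones were chosen to do so. Of these 9, Mrpl52 and Mrpl14 had the motif within 5 bases of the start.

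Across all members with a RefSeq start, 0 of 69 began with C followed by 4 pyrimidines, against 22.2% of the 63 cytosolic ribosomal protein genes and 3.05% of all genes in the tables. RefSeq starts can be off by a few bases. In some members they lay further from the start of the deposited transcript, as for Mrpl39 (chr16:84735244 against chr16:84735742). Among the starts shown above this held for Mrpl36 (chr13:73331009 against chr13:73328513) and Mrpl32 (chr13:14613037 against chr13:14613165), so their capitals are not the first bases of the deposited transcript. Within 5 bases of the RefSeq start the motif was present in 24.6% of members, 47.6% of cytosolic ribosomal protein genes and 23.6% of all genes. At the starts of the deposited transcripts themselves the motif was found in 3 of 78 members (Mrpl10, Mrpl35 and Mrpl4), or 3.85%, against 10.8% of cytosolic ribosomal proteins and 2.34% of all transcripts. Both searches missed most cytosolic ribosomal protein genes, whose mRNAs are known for the motif, so they cannot show that a member lacks it. The windows from 250 bases before to 50 after the start were also searched, on both strands, for motifs known from promoters of genes for mitochondrial proteins. The ETS-type motif CCGGAAG was present in 37.7% of members, 41.3% of cytosolic ribosomal protein genes and 20% of all genes in the tables (8.86% of all RefSeq windows). The exact palindromic NRF1 motif was present in 4.35%, 3.17% and 2.35% (0.971%). The YY1 motif spelled by the capitals of the next lines, which also forms the core of the TISU element of short leaders, was present in 7.25% of members, 0% of cytosolic ribosomal protein genes, 1.73% of all genes in the tables and 0.633% of all windows.

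The 5 members with that motif in their window are shown because in 3 of them its ATG is the annotated start codon, which places the coding sequence close to the RefSeq start. The motif is in capitals, on the strand of the gene, from the same RefSeq build.
Mrpl35 (chr6:71823741-71823770, - strand): gcaggctgcAAGATGGCGGCttccatcttc
Mrpl37 (chr4:107066820-107066849, - strand): gcacgggcaAAGATGGCGGCgtccaggtag
Mrps11 (chr7:78783012-78783041, + strand): cctacgggcGCCGCCATCTTtctgtcttcc
Mrps18a (chr17:46111006-46111035, + strand): gtgcgttccAAGATGGCGGCcctcagggct
Mrps27 (chr13:99344791-99344820, + strand): gtgcgctccAAGATGGCGGCtcccatggtg
The ATG was the start codon in Mrpl35, Mrps18a and Mrps27, not in Mrpl37, and in Mrps11 the motif lay on the opposite strand, before the start. That match lies on the strand of another member, Mrpl46, after its start at chr7:78783089 (annotated leader 61 nt). The window searched for Mrpl46 itself held no match, and whether the ATG is its start codon was not examined. Under Torin1 in KO cells TE fell for Mrpl35 (log2 -0.55), Mrpl37 (-0.71) and Mrps27 (-0.39), and the values of Mrps18a (log2 -0.18, SE 0.19, adjusted p = 0.52) and Mrps11 (log2 0.32, SE 0.20, adjusted p = 0.25) did not pass the test.

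In untreated cells the members spread widely in both mRNA and translation. In ctrl DMSO the mRNA level per kilobase of coding sequence had a median of 127 CPM and was highest for Mrpl12 (539.7 CPM per kb), the protein of the flexible stalk that recruits translation factors, Mrpl30 (516) and Mrpl42 (415). It was lowest for Mrpl32 (59.3 CPM per kb), Mrpl44 (40.8) and Mrpl50 (28.7). TE in ctrl DMSO, here the mean footprint CPM of 2 libraries over the mean mRNA CPM of 3, had a median of 0.971 over the members and 0.929 over all transcripts, and ran from 0.302 to 3.48. The highest TE belonged to small proteins, Mrps33 (3.48), Mrps36 (2.84), which is also a part of the 2-oxoglutarate dehydrogenase complex, and Mrpl36 (2.31), and the lowest to Mrpl42 (0.302), Mrpl37 (0.411) and Mrpl12 (0.430).

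Mrpl12 and Mrpl42 thus combined 2 of the 3 highest mRNA levels with 2 of the 3 lowest TE values. Mrps33 had 94.0 and 101 footprint CPM in the ctrl DMSO libraries on 31.2, 29.9 and 22.7 mRNA CPM, and Mrpl42 had 59.0 and 48.7 footprint CPM on 189.6, 197 and 147 mRNA CPM. By replicate, with replicates 1 and 3 matched between the assays, TE was 3.01 and 4.43 for Mrps33 and 0.311 and 0.330 for Mrpl42, and TE values of single libraries below are matched in this way. The median of the ratios of means was 0.957 for the large and 0.988 for the small subunit.

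Summed over the genes of a subunit, the balance between large and small subunit varied little. The Mrpl sum exceeded the Mrps sum 1.87 to 2.06 times in mRNA over 12 libraries and 1.41 to 1.63 times in footprints over 11. The mRNA of all members together averaged 7326 ± 919 CPM (SD, n = 3) for ctrl DMSO, 6011 ± 176 in ctrl Torin1, 6358 ± 503 in KO DMSO and 5764 ± 219 in KO Torin1. In the same order, footprints averaged 6524 ± 1054 CPM (SD, n = 2), 5094 ± 317, 6244 ± 247 and 4668 ± 211 (n = 3 each). In footprints every Torin1 library lay below every DMSO library of its line, 4859 to 5455 CPM against 5778 to 7269 in ctrl and 4535 to 4912 against 6030 to 6514 in KO cells. In mRNA this held in ctrl cells (5894 to 6214 against 6430 to 8266 CPM) and in KO cells by a narrow margin (5592 to 6010 against 6052 to 6939). The mean ratio was 1.49 to 1.55 in footprints, where the libraries of all 4 conditions overlapped, and 1.88 to 2.00 in mRNA, where Torin1 and DMSO overlapped in each line. In mRNA the KO libraries lay below the ctrl libraries without overlap, at 1.88 to 1.94 against 1.95 to 2.06 in DMSO and 1.87 to 1.88 against 1.91 to 1.96 with Torin1, a difference that was not tested. In bulk libraries a lower level in every cell and a loss in some cells cannot be told apart.

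**Figure D1:**
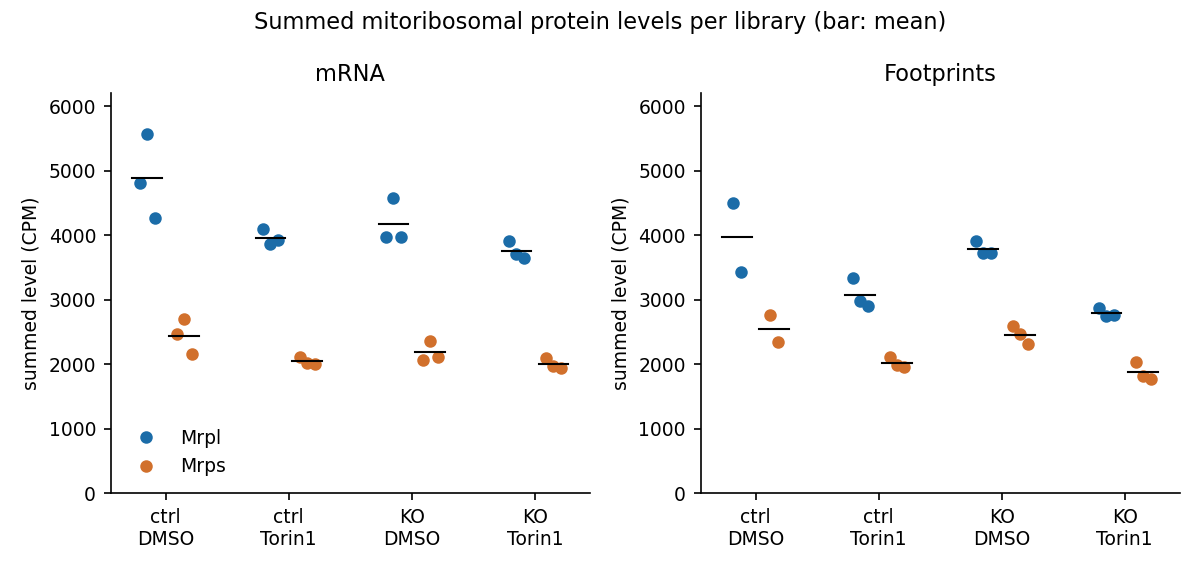
Summed level (CPM, linear axis from 0) of the 49 Mrpl and 29 Mrps genes in every library, mRNA on the left and footprints on the right. Points are libraries and bars are condition means; in footprints both sums lie lower in every Torin1 library than in any DMSO library of the same line, and the Mrpl mean was 3970 CPM in ctrl DMSO and 3076 CPM in ctrl Torin1.

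At the mRNA level the question was whether Torin1 lowered the messages themselves within 2 h. In ctrl cells 1 of 78 members fell and 0 rose, where 0.675% of all 10958 transcripts tested fell and 2.05% rose. The median log2 change was -0.29 (all transcripts 0.00, cytosolic ribosomal proteins -0.28), 76 of 78 values were negative (5430 of 10958 over all transcripts), and 45 were lower at an unadjusted p below 0.05 (1167 over all). The 1 member that fell was Mrps34, a small-subunit protein particular to mitochondria, with 40.6, 43.9 and 40.6 CPM in ctrl DMSO and 27.5, 30.0 and 30.5 CPM in ctrl Torin1, a log2 change of -0.50 (SE 0.12, adjusted p = 0.046) by edgeR. The groups did not overlap. In KO cells 3 members fell and 0 rose (3.74% and 6.23% of all transcripts did), with a median over the members of -0.16. Mrps12, whose bacterial counterpart lies at the decoding centre, had 40.6, 47.9 and 35.3 CPM in KO DMSO and 33.1, 30.9 and 23.1 in KO Torin1, with a log2 change of -0.50 (SE 0.14, adjusted p = 0.046). Mrpl46 fell by 0.41 and Mrpl18 by 0.28 on the log2 scale, both proteins of the central protuberance of the large subunit. All 3 lay lower in every KO Torin1 library than in any KO DMSO library.

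These mRNA changes were small and their count depended on single libraries and on the method. Without ctrl DMSO replicate 3 the count in ctrl cells was 32, and without ctrl DMSO replicate 1 or any ctrl Torin1 library it was 0. In KO cells it was 7 without KO DMSO replicate 3, 1 without KO DMSO replicate 1 or KO Torin1 replicate 2, and 0 without KO Torin1 replicate 1 or 3. DESeq2 called 14 members in ctrl and 6 in KO cells, and edgeR with a replicate block also called more in both lines, as given in the last section. Across all transcripts the mRNA change was also related to coding length (Spearman's rho 0.48 in ctrl and 0.32 in KO cells, a description over transcripts that share libraries), and the members are short, with a median coding sequence of 585 nt against 1360 nt. The part of coding length in the members' medians was not tested. Mrps34 shares 333 of its 654 coding bases with Mapk8ip3 on the opposite strand and Mrpl18 shares 124 of 540 with Tcp1, and whether the counting used strand is not given in the sources used here.

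Footprints fell more widely. In ctrl cells 25 of 78 members fell under Torin1 and 0 rose, where 9.93% of all 10693 transcripts tested fell and 5.69% rose, with a median log2 change of -0.41 (all transcripts 0.02). The response was modest beside that of the cytosolic ribosomal proteins, of which 79 of 82 fell with a median of -1.98. Of the 25, 15 were Mrpl of 49 (median -0.40) and 10 were Mrps of 29 (-0.41).

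Mrpl30, a large-subunit protein with a bacterial counterpart, had the most negative value. Its footprints were 138 and 94.1 CPM in ctrl DMSO, 55.7, 49.0 and 27.2 in ctrl Torin1, 105, 108 and 102 in KO DMSO and 47.1, 48.3 and 41.2 in KO Torin1. All 6 Torin1 libraries lay below all 5 DMSO libraries, and the change was 2.78-fold in ctrl cells, a log2 of -1.48 (SE 0.23, adjusted p = 1.4e-04) by edgeR. Its mRNA was 258, 292 and 197 CPM in ctrl DMSO and 227, 194 and 203 in ctrl Torin1, groups that overlapped. It is among the 3 most abundant mitoribosomal mRNAs per kilobase in these cells, and its RefSeq start, shown above, does not begin with a TOP motif.

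Mrps24, which corresponds to a bacterial small-subunit protein at the mRNA entry, had 59.5 and 29.2 footprint CPM in ctrl DMSO and 26.8, 19.0 and 22.1 in ctrl Torin1, a log2 change of -1.17 (SE 0.26, adjusted p = 0.0043). Mrpl14, at the subunit interface and the docking site of the assembly factor Malsu1, had 59.0 and 71.4 CPM in ctrl DMSO and 31.8, 24.1 and 28.9 in ctrl Torin1 (log2 -1.17, SE 0.21, adjusted p = 7.2e-04). Mrpl52, which has no bacterial counterpart, had 109 and 90.8 CPM in ctrl DMSO and 53.6, 49.0 and 39.2 in ctrl Torin1 (log2 -1.13, SE 0.18, adjusted p = 2.3e-04). None of these 3 overlapped between the treatments. Mrpl38, of the central protuberance, had 228 and 198 CPM in ctrl DMSO and 118, 93.9 and 94.8 in ctrl Torin1, and its change of -1.08 (SE 0.16, adjusted p = 6.3e-05) by edgeR had the smallest adjusted p of the family in ctrl cells. Mrpl53 fell by 0.97 on the log2 scale (SE 0.23), but all 354 of its coding bases are shared with the annotated transcript Gm42688, so its counts are uncertain.

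The ctrl count of 25 moved with the libraries used. It was 37 without ctrl DMSO replicate 3, 7 without ctrl DMSO replicate 1 and 9 or 10 when ctrl Torin1 replicate 2 or 3 was left out, and DESeq2 called 11. With library size as the only scaling the median of all transcripts moved up by 0.21, and 13 members fell and 2 rose. The members' median relative to that of all transcripts was -0.42. A change of scaling shifts all transcripts nearly alike, so this relative value hardly can move and is no check of the scaling, here or below.

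In KO cells 43 of 78 members fell under Torin1 and 0 rose (22.1% of all 10822 transcripts tested fell and 18.5% rose), with a median log2 change of -0.42. Of these 43, 26 were Mrpl of 49 (median -0.38) and 17 were Mrps of 29 (-0.49), and 79 of 82 cytosolic ribosomal proteins fell with a median of -2.07. The most negative value was that of Mrpl52, with 99.6, 78.4 and 63.9 CPM in KO DMSO and 31.3, 33.0 and 29.7 in KO Torin1, a 2.59-fold difference (log2 -1.37, SE 0.17, adjusted p = 4.6e-08 by edgeR). The KO groups did not overlap.

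The next were Mrpl30 (log2 -1.22, SE 0.14, adjusted p = 9.1e-09), Mrpl14 (log2 -1.20, SE 0.17, adjusted p = 9.9e-07) and Mrps24 (log2 -1.20, SE 0.20, adjusted p = 1.4e-05), all 3 also among the most negative in ctrl cells. Mrpl34, one of the smallest large-subunit proteins, had 43.5, 34.1 and 34.7 CPM in KO DMSO and 15.0, 19.1 and 14.9 in KO Torin1 (log2 -1.20, SE 0.20, adjusted p = 9.7e-06), and in ctrl cells 57.3 and 19.5 CPM with DMSO and 40.5, 23.6 and 23.3 with Torin1, groups that overlapped. Mrpl58, which keeps peptide-release activity and frees stalled mitochondrial ribosomes, had 96.8, 91.0 and 93.8 CPM in KO DMSO and 43.2, 54.1 and 41.2 in KO Torin1 (log2 -1.04, SE 0.14, adjusted p = 4.4e-07). For each of these members the KO groups did not overlap. Of the 25 members that fell in ctrl cells 23 also fell in KO cells (92% of the 25 and 53.5% of the 43), and the exceptions were Mrpl49 and Mrps33.

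Of the 78, 35 did not pass the test in KO cells, and some of these had higher values with Torin1. Mrpl41 had 33.8 and 29.2 footprint CPM in ctrl DMSO and 44.1, 47.2 and 37.5 in ctrl Torin1, 39.5, 36.6 and 43.1 in KO DMSO and 48.0, 40.2 and 45.7 in KO Torin1, with log2 changes of 0.40 (SE 0.21, adjusted p = 0.23) and 0.16 (SE 0.16, adjusted p = 0.44). Mrpl3, a core protein of the large subunit, had 61.2, 68.6 and 88.9 CPM in KO DMSO and 69.6, 92.9 and 93.2 in KO Torin1, groups that overlapped (log2 0.20, SE 0.15, adjusted p = 0.29). Mrpl51 had the most positive value in KO cells, 0.34 (SE 0.15, adjusted p = 0.062). The KO count was 37 to 47 lower calls when any 1 library was left out, and with library size as the only scaling it was 30 lower and 8 higher, with the median of all transcripts shifted up by 0.25 and the members' median at -0.44 relative to it.

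**Figure D2:**
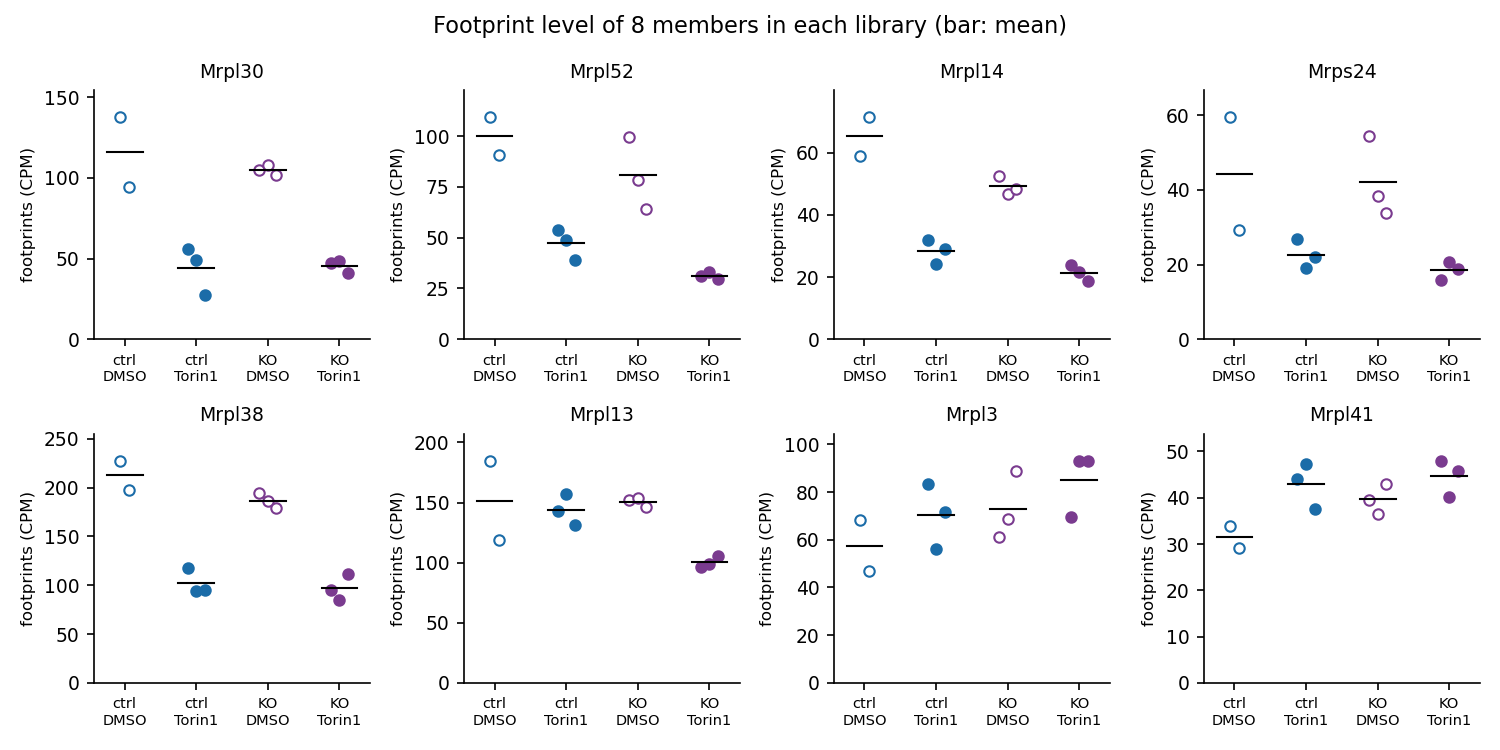
Footprint level (CPM, linear axis from 0, a separate scale in each panel) of 8 members in each ribo-seq library, with DMSO as open and Torin1 as filled points, ctrl in blue and KO in purple, and bars for means (n = 2 in ctrl DMSO, 3 elsewhere). Mrpl30, Mrpl52, Mrpl14, Mrps24 and Mrpl38 lie lower with Torin1 in both lines, Mrpl13 passed the test in KO cells and not in ctrl cells, and Mrpl3 and Mrpl41 passed it in neither.

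**Figure D3:**
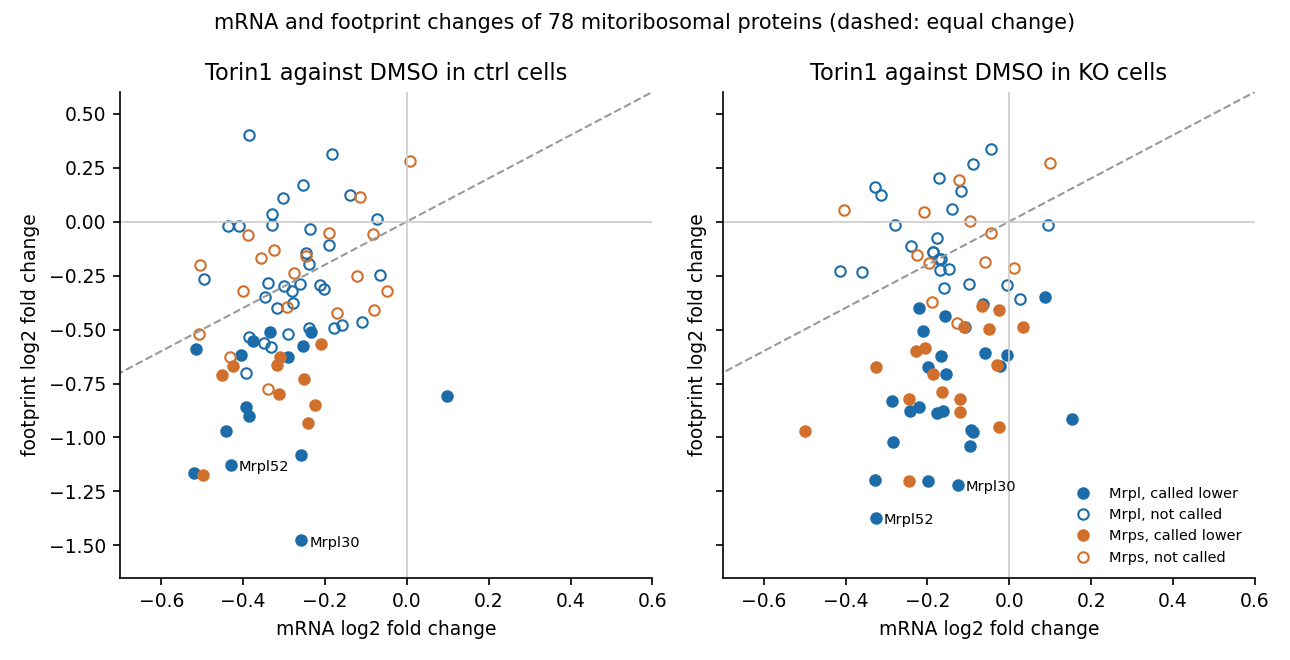
Log2 fold change of footprints (vertical) against that of mRNA (horizontal) under Torin1 for the 78 members, ctrl cells on the left and KO cells on the right, filled where the footprint change passed the test, with the dashed line marking equal change. The mRNA values spread little (from -0.52 to 0.10 in ctrl and -0.50 to 0.15 in KO cells), while footprint values reach -1.48 for Mrpl30 in ctrl and -1.37 for Mrpl52 in KO cells.

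TE separates the change in footprints from that in mRNA. In ctrl cells 3 members fell in TE under Torin1 and 0 rose (4.29% of all 10432 transcripts tested fell and 0.383% rose), all of them Mrpl, with a median over the members of -0.13 against -0.01 over all transcripts. Mrpl30 had TE values of 0.532 and 0.478 in ctrl DMSO and 0.245, 0.252 and 0.135 in ctrl Torin1, a log2 change of -1.21 (SE 0.29, adjusted p = 0.016) by edgeR. Mrpl9 had 1.18 and 1.42 with DMSO and 0.663, 0.724 and 0.674 with Torin1 (log2 -0.91, SE 0.19, adjusted p = 0.0058), and Mrpl38 had 0.766 and 0.661 with DMSO and 0.425, 0.344 and 0.350 with Torin1 (log2 -0.82, SE 0.20, adjusted p = 0.018). The treatments did not overlap for any of the 3. Mrpl9 is the member whose mRNA had the highest log2 change in ctrl cells, 0.10, and it shares 157 of 795 coding bases with Oaz3 on the opposite strand. With a replicate left out of both assays together, the count was 6 without ctrl DMSO replicate 2, which had RNA-seq only, 1 when ctrl DMSO replicate 1 or ctrl Torin1 replicate 2 was left out, and 0 when ctrl Torin1 replicate 3 was. With library size as the only scaling 1 member fell and 1 rose, the members' median was 0.04, and relative to all transcripts, shifted up by 0.17, it was -0.13.

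In KO cells 31 members fell in TE and 0 rose, where 17.8% of all 10535 transcripts tested fell and 10.6% rose. The median log2 change was -0.34 over the members (Mrpl -0.29, Mrps -0.37), -0.01 over all transcripts and -2.03 over the cytosolic ribosomal proteins, of which 78 of 82 fell. Of the 31, 20 were Mrpl and 11 Mrps, and all 31 were among the 43 whose footprints fell. Mrpl30 had 0.505, 0.467 and 0.491 in KO DMSO and 0.230, 0.256 and 0.209 in KO Torin1 (log2 -1.09, SE 0.14, adjusted p = 1.3e-06 by edgeR). Mrpl32, which is cut by the m-AAA protease before it enters the ribosome, had 1.20, 1.77 and 1.99 in KO DMSO and 0.842, 0.892 and 0.699 in KO Torin1 (log2 -1.07, SE 0.21, adjusted p = 3.9e-04). Mrpl52 had 1.73, 1.16 and 1.10 in KO DMSO and 0.591, 0.674 and 0.686 in KO Torin1 (log2 -1.04, SE 0.20, adjusted p = 3.4e-04). For all 3 the KO groups were apart, as they were for Mrpl14 (-1.00), Mrps24 (-0.95), Mrpl58 (-0.94) and Mrps30 (-0.93). Mrps30, named for the small subunit but placed in the large one, shares 583 of 1326 coding bases with B430218F22Rik on the opposite strand.

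At the other end, Mrpl41 had TE values of 1.72, 1.29 and 1.60 in KO DMSO and 2.33, 2.14 and 2.01 in KO Torin1, which did not overlap, with a log2 change of 0.49 (SE 0.19, adjusted p = 0.053) that missed the threshold. Mrps34 (log2 0.46, SE 0.23, adjusted p = 0.14), Mrpl36 (log2 0.44, SE 0.21, adjusted p = 0.13), Mrpl51 (log2 0.39, SE 0.18, adjusted p = 0.12) and Mrpl3 (log2 0.38, SE 0.18, adjusted p = 0.11) followed, and none passed the test. The RefSeq starts of Mrpl41, Mrpl36 and Mrpl51 are shown above and also do not begin with the TOP motif. The count was 21 to 32 lower calls with 1 replicate left out of both assays, and with library size as the only scaling 13 members fell and 13 rose, with a shift of all transcripts of 0.25 and the members' median at -0.34 relative to it. The direction of a single member near 0 therefore depends on the scaling, while the 6 members named above with the most negative TE change in KO cells kept a negative value in each alternative, though Mrps24 lost its call without KO Torin1 replicate 1.

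**Figure D4:**
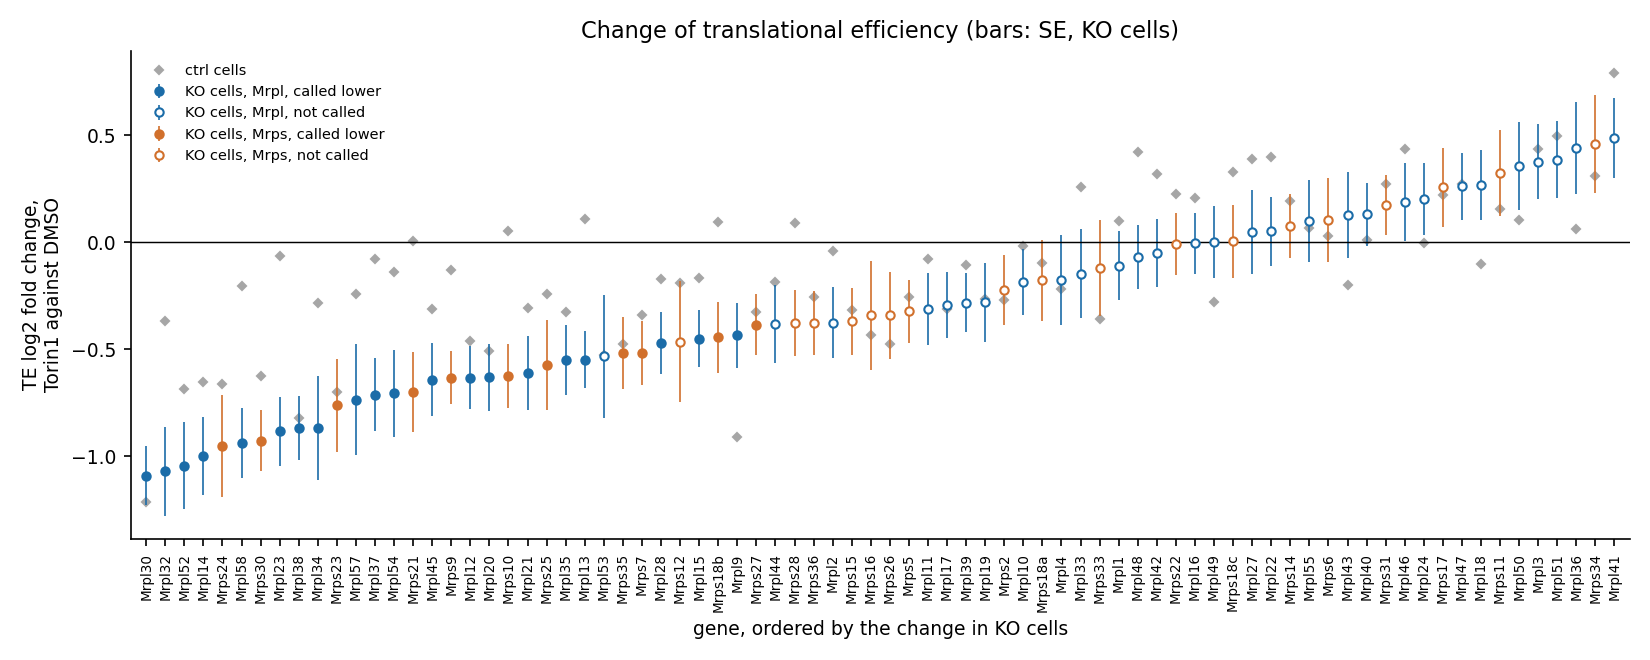
Log2 change of TE under Torin1 for the 78 members, ordered by the value in KO cells (circles with SE, filled where it passed the test, blue for Mrpl and orange for Mrps), with the value in ctrl cells as grey diamonds. In KO cells the values run from -1.09 for Mrpl30 to 0.49 for Mrpl41, and the filled circles of both subunits are mixed along the order; with library size as the only scaling all values lie higher by about 0.25.

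Ordered by role, proteins of one functional site had unequal values, and differences between members were not tested. At the stalk, Mrpl12 fell in footprints in both lines, with 172 and 109 CPM in ctrl DMSO, 89.7, 78.7 and 77.2 in ctrl Torin1, 138, 118 and 115 in KO DMSO and 68.7, 68.0 and 67.4 in KO Torin1. By edgeR its log2 change was -0.86 (SE 0.18, adjusted p = 0.0029) in ctrl and -0.88 (SE 0.13, adjusted p = 1.7e-06) in KO cells, and no Torin1 library overlapped with DMSO. Its partners at the stalk base, Mrpl10 (-0.29 and -0.29, neither past the test) and Mrpl11 (-0.29, not past the test, and -0.38, past it), had smaller values. Mrpl10 is one of the 3 members whose deposited transcript starts with a TOP motif. In the small subunit, Mrps7, on the path of the mRNA, fell in both lines, with log2 changes of -0.66 (SE 0.18, adjusted p = 0.015) and -0.71 (SE 0.14, adjusted p = 1.2e-04), and Mrps12 fell in KO cells (log2 -0.97, SE 0.23, adjusted p = 0.0012) with a value of -0.63 (SE 0.26, adjusted p = 0.11) in ctrl cells. Mrpl45, at the exit of the peptide tunnel where the ribosome meets the inner membrane, fell in KO cells (log2 -0.67, SE 0.15, adjusted p = 7.2e-04) and not by the test in ctrl cells (log2 -0.48, SE 0.22, adjusted p = 0.14). Mrps36 fell in both lines, from 159 and 164 to 104, 108 and 82.9 CPM in ctrl and from 144, 143 and 149 to 108, 82.3 and 103 CPM in KO cells, with log2 changes of -0.71 and -0.59. Of the Mrps proteins that sit in the large subunit, Mrps30 fell in both lines (-0.85 and -0.95), whereas the values of Mrps18a, -0.39 (SE 0.18, adjusted p = 0.16) and -0.37 (SE 0.16, adjusted p = 0.058), did not pass the test.

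Regrouping the members by evolutionary origin or by structure gave similar medians. Of 46 members with a bacterial homologue 13 fell in footprints in ctrl and 27 in KO cells (medians -0.35 and -0.45), and of 29 members particular to mitochondria 10 and 14 did (-0.41 and -0.36). In TE in KO cells these were 18 of 46 and 12 of 29 (medians -0.33 and -0.34). With Mrps30 and Mrps18a counted in the large subunit and Mrps36 left out, the medians of the footprint change in KO cells were -0.38 for 51 large-subunit and -0.48 for 26 small-subunit genes. No difference between these groups was tested, and each range was wide, from -1.37 to 0.34 for Mrpl and from -1.20 to 0.27 for Mrps.

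The comparison of KO with ctrl cells asked whether Eif4e3 bears on these genes without or with Torin1. In DMSO, 0 of 78 members passed the edgeR test in mRNA (0.00915% of 10924 transcripts were lower and 0.00915% higher), with 9 lower at an unadjusted p below 0.05 (350 over all transcripts) and 0 by DESeq2, and a median of -0.19. With a replicate block 9 members were called in mRNA, though the labels do not tie equal replicate numbers to a shared passage. In footprints 0 passed (0.0186% of 10757 were lower and 0.0093% higher), with 5 lower at an unadjusted p below 0.05 (440 over all) and 0 by DESeq2, and a median of -0.12. In TE 0 passed (0% of 10475 in either direction), with 1 lower and 2 higher at an unadjusted p below 0.05 (277 and 149 over all) and 0 by DESeq2, and a median of 0.06. With only 2 ctrl DMSO ribo-seq libraries, 1 of them shallow, a moderate difference may not have been detectable.

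With Torin1, the mRNA of 0 members passed the edgeR test (0.954% of 11007 transcripts were lower and 1.01% higher), with 11 lower and 2 higher at an unadjusted p below 0.05 (944 and 1010 over all transcripts) and 1 by DESeq2, and a median of -0.06. Footprints of 5 members were lower in KO than in ctrl cells, and 0 higher, where 4.01% of all 10792 transcripts were lower and 2.02% higher, and the median over all members was -0.12. All 5 were Mrpl. Mrpl13 had 143, 157 and 131 CPM in ctrl Torin1 and 96.5, 98.6 and 106 in KO Torin1 (log2 -0.52, SE 0.12, adjusted p = 0.0055 by edgeR), while in DMSO it had 185 and 118 in ctrl and 152, 154 and 146 in KO cells. Mrpl37 had 52.8, 47.7 and 43.7 CPM in ctrl Torin1 and 26.9, 35.4 and 29.2 in KO Torin1 (log2 -0.65, SE 0.18, adjusted p = 0.018). Mrpl57, a small protein without a bacterial counterpart, had 27.5, 20.4 and 23.3 CPM in ctrl Torin1 and 14.5, 12.0 and 13.1 in KO Torin1 (log2 -0.82, SE 0.25, adjusted p = 0.038). Mrpl34 (log2 -0.79, SE 0.24, adjusted p = 0.038) and Mrpl52 (log2 -0.58, SE 0.18, adjusted p = 0.038) completed the set, and none of the 5 overlapped between the lines with Torin1. The share of members, 5 of 78, was near that of all transcripts, and the count was 1 without ctrl Torin1 replicate 1 or KO Torin1 replicate 3, 2 without KO Torin1 replicate 2, 3 without KO Torin1 replicate 1, and 1 by DESeq2.

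In TE with Torin1 only Mrpl13 passed the test among the members (2.26% of 10509 transcripts were lower and 0.59% higher), with 1.04, 1.23 and 0.974 in ctrl Torin1 and 0.677, 0.782 and 0.785 in KO Torin1 and a log2 difference of -0.54 (SE 0.12, adjusted p = 0.014) by edgeR. It lost that call when ctrl Torin1 replicate 2 or KO Torin1 replicate 1 was left out of both assays. DESeq2 called 3 members lower and 1 higher. Whether the response to Torin1 differed between the lines was tested as the interaction of genotype with treatment. By edgeR it passed for 0 members in mRNA (0% of 11073 transcripts), with 1 higher at an unadjusted p below 0.05 (72 over all transcripts). It passed for 0 in footprints (0.113% of 10662 negative and 0% positive), with 2 lower and 1 higher at an unadjusted p below 0.05 (494 and 237 over all). It passed for 0 in TE (0% of 10443), with 6 lower and 1 higher (385 and 214 over all), and for 0 in each assay by DESeq2. The larger counts of fallen members in KO than in ctrl cells, 43 against 25 in footprints and 31 against 3 in TE, are therefore not shown to be a difference between the lines, and the ctrl comparison held 1 ribo-seq library fewer and the shallowest one. For Mrpl13 the interaction was -0.43 (SE 0.20, adjusted p = 0.69) in footprints.

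The annotated 5′ leader was a feature the rule did not use. It was measured from the start of the deposited transcript, not from the RefSeq start shown above. These starts differ in some members, such as Mrpl39 with its annotated leader of 525 nt, and leaders from RefSeq starts were not computed. The members' leaders had a median of 91 nt (Mrpl 97, Mrps 60), against 95 nt for cytosolic ribosomal proteins and 171 nt for all transcripts. The 31 members whose TE fell in KO cells had a median leader of 62 nt and the other 47 one of 115 nt. For footprints the medians were 62 nt for the 25 that fell and 106 nt for the others in ctrl cells, and 74 and 115 nt in KO cells. Of the 40 members with a leader of at most 91 nt, 50% fell in TE in KO cells, and of the 38 with a longer one 28.9% did, where over all transcripts the same split gave 26.3% and 15.1%. Across the 78 members Spearman's rho of leader length with the TE change in KO cells was 0.29, and across 10498 transcripts it was 0.26. For KO against ctrl cells with Torin1 it was 0.39 over the members and 0.15 over all transcripts in footprints, and 0.31 and 0.11 in TE. These values describe genes measured in the same libraries, and differences between them were not tested. Mrpl52, Mrpl58, Mrps24 and Mrps30, with leaders of 24, 23, 25 and 18 nt, were among the short ones. Of the members whose TE fell, 11 had leaders over 91 nt. Among these, Mrpl30 fell most with a leader of 215 nt, and Mrpl32, Mrpl14 and Mrpl13 fell with leaders of 147, 126 and 464 nt.

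**Figure D5:**
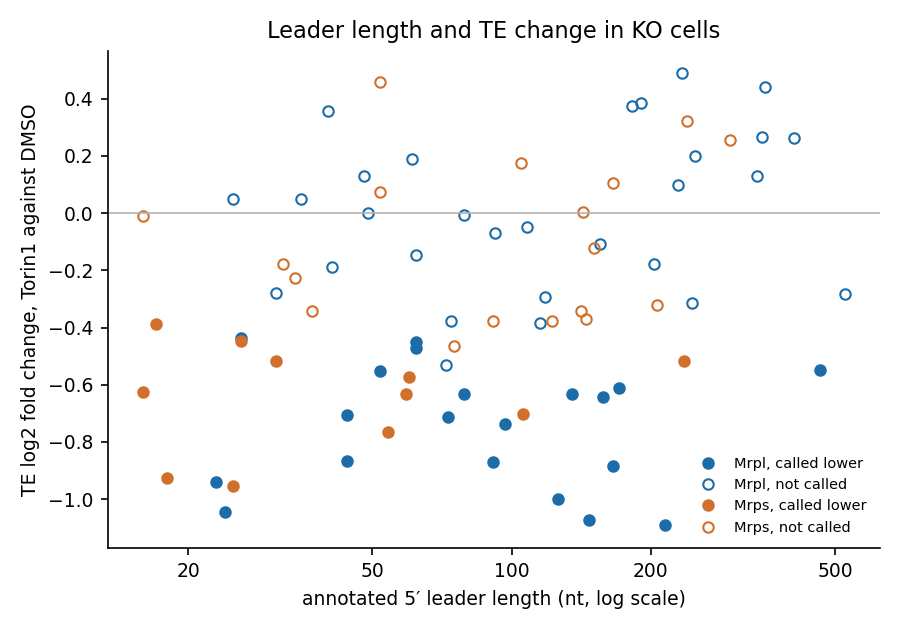
Log2 change of TE under Torin1 in KO cells (vertical) against the annotated 5′ leader length (horizontal, nt on a log scale) for the 78 members, filled where the change passed the test, blue for Mrpl and orange for Mrps. Points of members that fell lie more often at short leaders (median 62 nt against 115 nt for the others). Of the members that fell, 11 had leaders over 91 nt, among them Mrpl30 at 215 nt and Mrpl13 at 464 nt.

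The genes that build and serve the mitochondrial ribosome are given by list, as counts and without a test of the list, to be read against all transcripts, of which 9.93% fell and 5.69% rose in footprints in ctrl and 22.1% and 18.5% in KO cells. Of 6 further ribosomal proteins with other names 5 were listed, of which 3 fell in footprints under Torin1 in KO cells and 1 in ctrl cells. Gadd45gip1 fell in both lines, with log2 changes of -0.92 (SE 0.21, adjusted p = 0.0045) in ctrl and -0.80 (SE 0.18, adjusted p = 6.6e-04) in KO cells by edgeR. The others were Aurkaip1 (-0.52 in KO cells) and Chchd1 (-0.41 in KO cells). Of 15 translation factors, 3 fell and 1 rose in ctrl and 4 fell and 1 rose in KO cells. Tufm, the mitochondrial elongation factor Tu, fell with log2 changes of -0.64 and -0.80 (SE 0.12, adjusted p = 1.3e-06) in ctrl and KO cells, and so did Oxa1l, which inserts the new proteins into the inner membrane, with -0.98 and -0.88 (SE 0.15, adjusted p = 2.4e-05). Mtif2, the initiation factor, rose in both lines, with 0.91 (SE 0.26, adjusted p = 0.023) and 0.85 (SE 0.16, adjusted p = 8.6e-05).

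Of 28 assembly factors 27 were tested. In footprints 2 of these fell in ctrl cells, where 9.93% of all transcripts fell and 5.69% rose. In KO cells 7 fell and 2 rose, where 22.1% and 18.5% of all transcripts did. In KO cells these included Mpv17l2 (-1.13), Rcc1l (-0.98) and, among those that rose, Gtpbp10 (0.69). In ctrl cells they were Malsu1 (-0.78), the partner of Mrpl14, and Noa1 (-0.55). Of 20 mitochondrial tRNA synthetases and amidotransferase subunits 1 fell in ctrl cells, Cars2 (-0.94), and in KO cells 2 fell and 3 rose, with Hars2 (0.94) and Yars2 (-0.61) among those that passed. The medians of the footprint change in KO cells were 0.04 for translation factors, near 0 for assembly factors and -0.05 for the synthetases, against -0.42 for the members and 0.02 for all transcripts. Between KO and ctrl cells with Torin1, Rcc1l (log2 -1.22, SE 0.22, adjusted p = 2.6e-04), Mpv17l2 (log2 -0.85, SE 0.23, adjusted p = 0.018) and the elongation factor Tsfm (log2 -0.57, SE 0.13, adjusted p = 0.0032) were lower in KO cells by edgeR, and in footprints the other genes of these lists did not pass the test.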

How the data were processed

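Footprints and mRNA reads of N2a cells were deposited as counts per transcript in 8 pairwise tables, 4 per assay. According to the methods and the processing notes, the authors trimmed reads with cutadapt, aligned them with HISAT2 and Bowtie2 (mm10 and canonical Ensembl transcripts), and made the deposited counts from reads over coding sequences, for footprints from P-sites assigned by riboWaltz. Columns of the authors' own fold changes, p-values and FDR, and their TE tables, were not used. The table of ctrl against KO in DMSO for RNA-seq repeats a replicate name, so its libraries were used by condition only. Groups and replicates were taken from the sample labels, which call each replicate another passage. Transcripts with more than 1 CPM in all libraries of at least 1 condition compared were tested in R 4.3.3 with edgeR 4.0.16 (TMM, quasi-likelihood test, Benjamini-Hochberg adjustment, threshold 0.05), each pairwise fit holding only the libraries compared. TE was tested as the interaction of assay with condition in 1 fit over both assays, with TMM within each assay, and the difference between lines as genotype by treatment. Printed CPM levels were scaled over the transcripts that the 4 tables of an assay share, and a TE level is footprint CPM over mRNA CPM, by same replicate number for single libraries and as a ratio of condition means for the order of members in ctrl DMSO and for medians. The depth of 669010 to 5284909 footprints per library sets the precision of low members. Alternatives were DESeq2 size factors, library size alone, no filter, DESeq2 1.42.0, a replicate block and replicates left out in turn (1 library for mRNA or footprints, the libraries of both assays together for TE, and a replicate number in all conditions for genotype by treatment). The fits were also run on simulated counts with changes planted in well-covered transcripts. These changes were larger than the members' median changes, so the runs do not show how well small changes are found. The members and lists were chosen with earlier results of these data known. Named were, in each comparison, the 6 called members with the most negative and the 6 with the most positive change (mean of at least 10 counts in the higher group), the 3 highest and 3 lowest in mRNA per kilobase and in TE in ctrl DMSO, a set with known roles (Mrpl12, Mrpl10, Mrpl11, Mrps12, Mrps7, Mrpl3, Mrpl45, Mrpl58, Mrps18a, Mrps30, Mrps36), and up to 3 genes per pathway list with the smallest adjusted p. A gene of these lists that the rule names is not reported here. Other members (those shown with sequences or motifs, Mrpl41, Mrps34 and Mrpl51 among the values that did not pass, Mrpl49, Mrps33 and Mrps9) were singled out after their values were seen. Start windows came from RefSeq (GRCm38.p6) for 69 of 78 members, and leaders and overlaps of coding exons from the GENCODE annotation of the same build.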

Additional observations from a re-analysis of the deposited data

Results flagged for a closer look

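Mrps9, a small-subunit protein, was singled out because its TE in KO cells lay on opposite sides of ctrl cells in the 2 treatments with no overlap of libraries. Without Torin1 its TE was 0.904 and 0.900 in ctrl DMSO and 0.983, 0.957 and 0.920 in KO DMSO, a log2 difference of 0.10 that did not pass edgeR's test. With Torin1 it was 0.779, 0.685 and 0.966 in ctrl and 0.597, 0.610 and 0.670 in KO cells, a log2 difference of -0.36 that did not pass either. Such separation in TE was not rare among the 78 members. Between the lines 12 were higher and 4 lower in KO cells without overlap in DMSO, and 5 higher and 18 lower with Torin1. These counts cover the members only and are given without the share over all transcripts. With so few libraries per group, groups can also separate by chance. The counts therefore do not show whether separation was more frequent among the members than among other transcripts. The separation of libraries was not itself tested, and the genotype by treatment term for TE of Mrps9 was -0.47 (SE 0.21, adjusted p = 0.85, edgeR's quasi-likelihood test).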

How the results depend on the processing

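With 1 replicate left out (1 library for mRNA or footprints, both assays together for TE), the number of members called ranged from 0 to 32 in mRNA in ctrl and 0 to 7 in KO cells under Torin1, 7 to 37 and 37 to 47 in footprints, and 0 to 6 and 21 to 32 in TE, and for KO against ctrl with Torin1 from 0 to 1 in mRNA, 1 to 4 in footprints and 0 to 2 in TE. With library size as the only scaling, 0 members were called in mRNA and 15 in footprints, lower and higher calls together, in ctrl cells under Torin1. DESeq2 called 14 in mRNA and 11 in footprints in ctrl cells and 6 in mRNA in KO cells under Torin1, and for KO against ctrl with Torin1 1 in mRNA, 1 in footprints and 4 in TE. With a replicate block, 17 were called in mRNA in ctrl and 12 in KO cells under Torin1, 9 in mRNA in DMSO between the lines, and 6 in mRNA, 8 in footprints and 3 in TE with Torin1. Other counts stayed within 1.5 times, but they take lower and higher calls together. With library size as the only scaling, some members were called higher under Torin1 in footprints and TE of both lines, as given above. The labels do not tie equal numbers to a shared passage across conditions: same-numbered libraries correlated in their deviations with r of -0.04 to 0.69 in RNA-seq and -0.04 to 0.14 in ribo-seq, and 9 of 12 and 8 of 11 libraries correlated best with their own number. The cause of these differences was not tested. Of 335 values of named members that were called, recomputed under an alternative, 278 kept direction and call, 57 lost the call and 0 reversed. These members were named for the largest changes among those called, so reversals were unlikely, and the counts do not speak for the other members. Depth limits what the 2 ctrl DMSO footprint libraries can show, with 669010 counts in replicate 3.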
